A study of Rattus norvegicus with 49 samples.

Results

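Male rats that received furan at 0.5 mg/kg were compared with male rats that received the vehicle alone, with 5 liver arrays in each group, which is 10 of the 49 arrays analysed here. The members were taken by the sex and dose in the sample labels (dosed animals 62, 63, 65, 68 and 70, control animals 2, 3, 4, 5 and 6). All animals were Fischer F344 rats aged 7 to 8 weeks at the start, and all, controls included, were gavaged with corn oil on 5 days per week for 90 days. The series also holds males and females at 0, 0.03, 0.12, 0.5 and 2 mg/kg. Each array carried liver RNA of 1 animal in the Cy5 channel and a universal rat reference RNA in the Cy3 channel, and the dyes were not swapped, so that each value below is a log2 ratio of liver over the same reference.

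Furan is a small volatile ring compound that forms when food is heated. In hepatocytes the cytochrome P450 enzyme CYP2E1 opens the ring to a reactive dialdehyde that binds thiols and amines, and the liver is the main target organ. Liver RNA also follows hormones and the time of day. Glucocorticoids induce genes such as Fkbp5 and Zbtb16, fasting acts through the fatty acid receptor PPAR alpha on Fgf21 and other targets, and the clock repressors of the Per and Cry families oscillate over the day.

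The 10 arrays differed in signal. Between 45.5% and 69.6% of the liver channel spots of the control arrays, and between 37.9% and 69.6% of those of the dosed arrays, were well above background, and the group means differed by -5.43 percentage points (exact permutation test, 2-sided, p = 0.5). Dosed animals 63 and 62 had the lowest shares of their group (37.9% and 45.3%) and lay on slides with no control array of either sex, and control animal 6 was the dimmest control (45.5%). The groups shared only 2 of the 8 slides, with animals 65 and 4 on slide 1 and animals 70 and 3 on slide 3, so the comparison was fitted with slide as a block over 48 arrays. Of 30367 probes, 17661 were tested. A probe was called where limma's p, adjusted over all tested probes by Benjamini-Hochberg, was at most 0.05 and the fold change at least 1.5. The labelled tissue was checked by its markers. Of the 15 hepatocyte identity genes, 14 were above background on all 10 arrays, and their mean log2 ratio lay between 5.32 and 7.04 on the control arrays and between 5.43 and 6.74 on the dosed arrays.

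At 0.5 mg/kg 64 of the tested probes were called, 0.362% of all, and the named ones included members of several of the gene lists. Probes for glucocorticoid-responsive genes (Zbtb16, Fkbp5), the metallothioneins (Mt1, Mt2A), PPAR alpha and its target Fgf21, and the endoplasmic reticulum genes Herpud1 and Dnajb9 rose. Probes for the growth arrest gene Gadd45g, the phosphatase Dusp1, the kinase Sik1 and the clock genes Per2, Cry1 and Nfil3 fell. Of the 64 probes, 33 rose (0.187% of tested probes) and 31 fell (0.176%), with fold changes of up to 6.72 upward and 4.37 downward, and 49 of them carried a symbol, for 47 genes. With median centring in place of loess, 40 probes rose and 10 fell among 50 called. At an unadjusted p under 0.05, 757 probes rose (4.29%) and 1226 fell (6.94%).

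**Figure D1:**
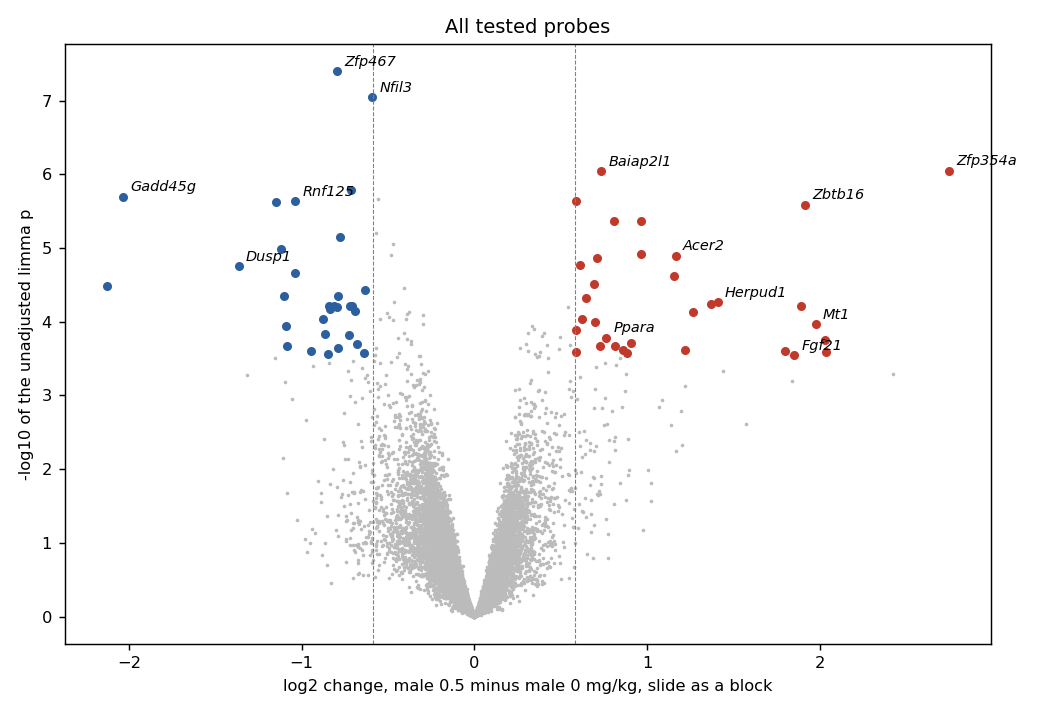
The horizontal axis gives the fitted log2 change (male 0.5 minus male 0 mg/kg) of each of the 17661 tested probes, and the vertical axis -log10 of its unadjusted limma p. Red and blue points are the 33 probes that rose and the 31 that fell, and dashed lines mark the 1.5-fold limits. Zfp354a has the largest rise (log2 change 2.75), while Zfp467 and Nfil3 have the smallest p-values.

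The call depended on the slide block and on single arrays. Without the block 8 probes were called, and with slide as a random block 72. The direction of all 64 was kept under both, which the choice of the 64 on the same arrays largely sets. Within the shared slides, where 1 dosed array faced 1 control array, all 64 probes moved in the fitted direction on both, as did 46.3% of all tested probes. These arrays are part of the fit that chose the 64, so the count is a description. In the normalised ratios, before the slide terms were taken off, the ranges of the groups did not overlap for 18 of the 64 probes (181 of all tested probes, 1.02%). After that step they did not overlap for 60 (888 of all tested probes, 5.03%), a count that the choice of the 64 by the same fit largely sets. Leaving out 1 array gave 49 calls without dosed animal 62, 32 without 63, 41 without 65, 29 without 68 and 28 without 70. It gave 23 without control animal 2, 24 without 3, 38 without 4, 20 without 5 and 85 without 6. Of the 33 called genes described below, 8 were called in all 10 of these fits: Zfp354a, Zbtb16, Acer2, Baiap2l1, Gadd45g, Slc34a2, Rnf125 and Zfp467. Without the slide block 5 of those 8 lost their call (adjusted p = 0.27 for Zfp354a and Zfp467, 0.435 for Baiap2l1, 0.475 for Zbtb16 and 0.696 for Acer2). Of the 33 genes 5 kept it without the block (Fkbp5, Gadd45g, Slc34a2, Wsb1 and Rnf125), and the adjusted p of the other 28 lay between 0.054 and 0.696. The log2 change was over 1.5 times smaller without the block for 6 of them, namely Acer2, Upp2, Ppara, Ablim3, Sall1 and Fgf21. Of the 5 genes that passed without the block, only Wsb1 kept its call when male arrays alone were fitted (adjusted p = 0.0213). Gadd45g and Slc34a2 (0.126 each), Fkbp5 (0.0817) and Rnf125 (0.0634) lost it there. Rnf125 also lost its call with all 49 arrays in the fit (adjusted p = 0.169). Among the leave-out fits, Wsb1 lost its call only without control animal 3 (adjusted p = 0.0572), Dusp1 without dosed animal 68 or control animals 3 or 4 (up to 0.0825), and Il6r without dosed animal 70 or control animals 2 or 5 (up to 0.0737).

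The glucocorticoid-responsive genes held both directions. Of 14 tested members of that list, 3 were called up (Zbtb16, Fkbp5, Mt1) and 1 down (Dusp1), and 6 rose and 4 fell at an unadjusted p under 0.05. Their median log2 change was 0.17 by the brightest probe of each gene and 0.36 over all probes, against -0.01 over 9852 tested genes. Of those 9852 genes 22 were called up and 23 down, and 451 rose and 689 fell at an unadjusted p under 0.05. These counts are the background for this list and for each list below. Zbtb16 encodes a zinc-finger repressor (PLZF) that glucocorticoids induce in many tissues. Its log2 ratio was 0.15, 0.65, 0.30, 0.10 and 0.06 in control animals 2, 3, 4, 5 and 6, and 0.92, 0.46, 1.89, 2.22 and 2.66 in dosed animals 62, 63, 65, 68 and 70, an order kept for every gene below. Only dosed animal 63 lay within the control range, and the probe was above background in 4 of 5 dosed and 1 of 5 control livers. The fitted log2 change was 1.92 ± 0.34 (SE, n = 5 against 5, limma adjusted p = 0.00418), and it ranged from 1.29 in the liver channel alone to 4.42 by the scanner's log ratio. Fkbp5 encodes a co-chaperone of HSP90 that dampens the glucocorticoid receptor. Its log2 ratio was -0.47, -0.72, -0.45, -0.79 and -0.66 in the controls and 0.30, 0.28, 0.30, 1.58 and 0.71 in the dosed animals. All 5 dosed livers stood above all 5 controls, with animal 68 the highest. The log2 change was 1.27 ± 0.28 (SE, limma adjusted p = 0.0283), and it passed without the slide block too (1.25, adjusted p = 0.0426). The call of Fkbp5 was lost without dosed animals 68 or 70 or control animals 2, 3 or 5 (adjusted p up to 0.106).

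The metallothioneins, small cysteine-rich proteins that bind zinc and copper, rose in most dosed livers and most in animal 70. Their promoters are shown because metal response elements are the best known inputs to these genes. The sequences are the 250 bases upstream of the RefSeq start sites (build GRCr8, minus strand, Mt1 at chr19:10832976-10833225 and Mt2A at chr19:10838709-10838958), with matches to TGCGCNC or TGCACNC on either strand in capitals.
Mt1: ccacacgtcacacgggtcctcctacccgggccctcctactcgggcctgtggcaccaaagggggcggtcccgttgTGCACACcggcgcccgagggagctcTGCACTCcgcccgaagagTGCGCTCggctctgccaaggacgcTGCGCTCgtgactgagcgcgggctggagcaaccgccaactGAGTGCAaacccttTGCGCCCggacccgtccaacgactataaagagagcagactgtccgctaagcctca
Mt2A: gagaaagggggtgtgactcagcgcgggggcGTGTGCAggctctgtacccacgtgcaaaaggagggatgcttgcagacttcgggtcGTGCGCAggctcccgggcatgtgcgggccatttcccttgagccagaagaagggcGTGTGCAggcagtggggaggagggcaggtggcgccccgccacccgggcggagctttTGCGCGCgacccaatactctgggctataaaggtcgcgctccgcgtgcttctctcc
Mt1 held 6 matches and Mt2A 4. In the window from 250 bases before to 50 after the start, TGCGCNC occurred in 14.1% and TGCACNC in 12.2% of 33469 promoters, and in 18 and 5 of the 40 called genes that had a promoter sequence. Of the 18 genes 8 rose and 10 fell, and of the 5 genes 3 rose and 2 fell. The 33469 promoters include those of genes not tested here. The shares for these motifs and for the motifs below are thus not a background of tested genes. Both motifs were added after the expression values were known, and a match describes letters, not a used site.

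The log2 ratio of Mt1 was 1.15, 0.70, 0.77, 1.40 and 0.57 in the controls and 2.54, 0.88, 2.00, 1.99 and 3.98 in the dosed animals. Animal 63 lay inside the control range and the other 4 above it. The log2 change was 1.98 ± 0.45 (SE, limma adjusted p = 0.0331), with differences of 1.23 on slide 1 and 3.27 on slide 3. The called probe of Mt2A read -0.52, -0.65, -0.66, -0.40 and -0.70 in the controls and 1.43, -0.08, 0.68, 0.90 and 2.53 in the dosed animals, with no overlap. Its log2 change was 2.03 ± 0.50 (SE, limma adjusted p = 0.0478), and a brighter probe of the gene gave 2.43 (adjusted p = 0.068). These genes are near copies of each other, so that cross-hybridisation between their probes was not separated here. The spread was wider in the dosed group (SD 1.12 for Mt1 against 0.35). The call of Mt1 was lost without dosed animals 62, 68 or 70 or control animals 2, 3, 4 or 5 (adjusted p up to 0.19), and that of Mt2A in 9 of the 10 leave-out fits (up to 0.236). Of 14 tested genes of metal binding and transport 1 other moved upward at an unadjusted p under 0.05, the metal sensor Mtf1 (log2 change 0.18, adjusted p = 0.43).

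**Figure D2:**
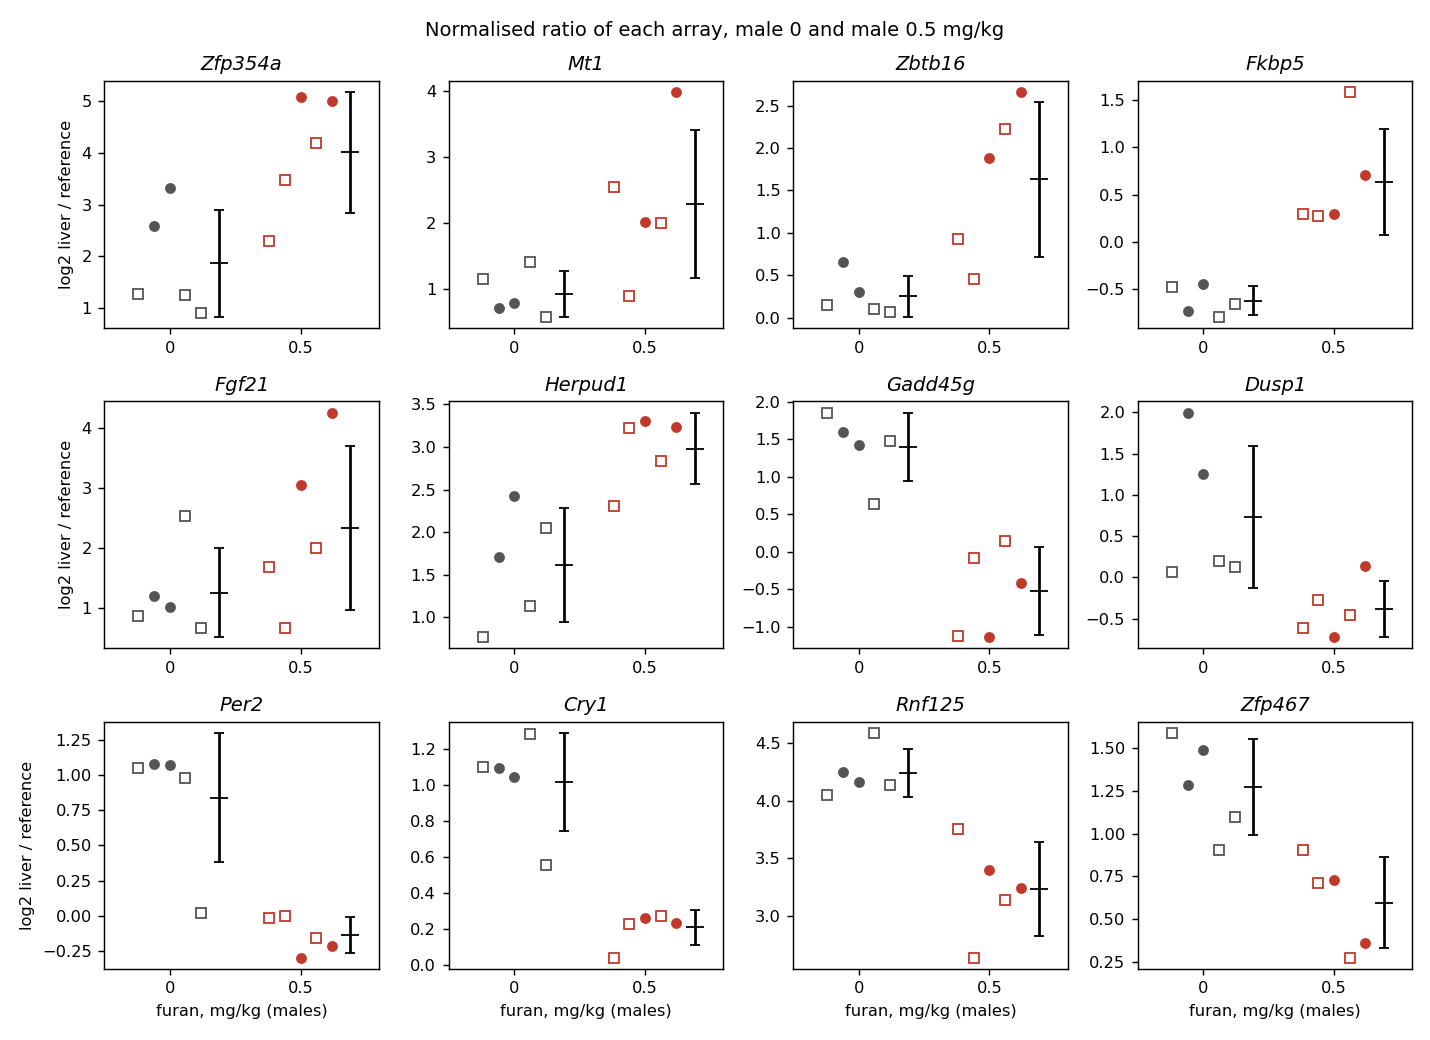
Each point is the normalised log2 ratio of liver over reference (vertical axis) of 1 array for 12 genes, for males at 0 and 0.5 mg/kg (horizontal axis), ordered by animal number. Filled circles are the arrays on slides 1 and 3, which hold both groups, open squares the arrays on other slides, and bars give the mean ± SD of 5 arrays. Fkbp5, Gadd45g, Per2, Cry1 and Rnf125 do not overlap between the groups, while Zfp354a, Fgf21 and Dusp1 do.

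Among the genes of fatty acid use and fasting, the receptor and its hormone target were called. Ppara and Fgf21 were the called members of 21 tested PPAR alpha targets, 4 members rose at an unadjusted p under 0.05 and none fell, and the list's median log2 change was 0.04. Fgf21 encodes a hormone that the liver secretes in fasting. Its log2 ratio was 0.86, 1.19, 1.02, 2.54 and 0.67 in the controls and 1.68, 0.67, 3.05, 1.99 and 4.25 in the dosed animals. Control animal 5 stood far above the other controls and dosed animal 63 at the control minimum. The log2 change was 1.85 ± 0.46 (SE, limma adjusted p = 0.0495), and the call was lost in 9 of the 10 leave-out fits (adjusted p up to 0.236), being kept only without control animal 6. Ppara read 0.91, 2.01, 1.31, 1.23 and 0.30 in the controls and 0.94, 0.54, 1.74, 1.98 and 2.64 in the dosed animals. These values overlapped over most of their range, and the called difference rests on the slide terms (log2 change 0.76 ± 0.18, adjusted p = 0.0409, against 0.42, adjusted p = 0.676, without the block). Cpt1a, the carnitine palmitoyltransferase that admits fatty acids to mitochondria, gave a log2 change of 0.78 (adjusted p = 0.25) and the thioesterase Acot1 0.48 (adjusted p = 0.26). None of 15 tested lipogenesis genes was called, and 4 fell at an unadjusted p under 0.05, with a median log2 change of -0.21.

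In the endoplasmic reticulum stress and amino acid response list, Herpud1 and Dnajb9 were called up and none of the 20 tested members down. Herpud1 encodes a membrane protein of the degradation machinery of that compartment, and its promoter is shown because it carries endoplasmic reticulum stress element II (in capitals) in the 250 bases upstream of the start (chr19:10614708-10614957, GRCr8, minus strand).
Herpud1: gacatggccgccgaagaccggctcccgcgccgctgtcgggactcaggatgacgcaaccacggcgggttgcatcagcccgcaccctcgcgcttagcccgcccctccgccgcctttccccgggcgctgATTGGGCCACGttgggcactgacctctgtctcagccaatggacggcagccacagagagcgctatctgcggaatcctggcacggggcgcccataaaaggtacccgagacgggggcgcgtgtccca
That motif was found in 0.0508% of all promoters and in none of the other called genes that had a promoter sequence. It was added after the expression values were known, and a match describes letters, not a used site. The log2 ratio of Herpud1 was 0.77, 1.71, 2.43, 1.13 and 2.04 in the controls and 2.30, 3.22, 3.31, 2.83 and 3.24 in the dosed animals. Only dosed animal 62 lay below the highest control, and the log2 change was 1.41 ± 0.31 (SE, limma adjusted p = 0.0268). Dnajb9, a co-chaperone that feeds misfolded proteins to degradation, read 1.25, 1.34, 1.65, 1.52 and 1.72 in the controls and 2.17, 1.93, 2.70, 1.68 and 2.19 in the dosed animals. Dosed animal 68 was within the control range and the others above it, with a log2 change of 0.86 ± 0.21 (SE, limma adjusted p = 0.0478). Herpud1 kept its call in 4 and Dnajb9 in 2 of the 10 leave-out fits, and the list as a whole had a median log2 change of 0.04. Psat1 and Phgdh, enzymes of serine synthesis, gave 0.37 and 0.56 with adjusted p-values of 0.31 and 0.35.

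The largest rise belonged to Zfp354a, which encodes a KRAB zinc-finger protein. Its log2 ratio was 1.27, 2.59, 3.31, 1.25 and 0.91 in the controls and 2.29, 3.48, 5.09, 4.18 and 5.00 in the dosed animals. Control animals 3 and 4, on the shared slides, were the highest controls and their slide partners 70 and 65 the highest dosed animals. The fitted log2 change was 2.75 ± 0.46 (6.72-fold, limma adjusted p = 0.00401), and the differences within slides 1 and 3 were 1.77 and 2.41. Acer2, an alkaline ceramidase of the Golgi, rose by 1.17 ± 0.23 on the log2 scale (SE, adjusted p = 0.0112), against 0.48 (adjusted p = 0.696) without the slide block. Its dosed animals 62 and 63 read 1.36 and 0.90, below most controls (0.85 to 2.06), while animal 70 read 2.95 and animal 65 was higher still. A further probe of Acer2 gave a log2 change of 0.87 and was not called. The interleukin-6 receptor gene Il6r read 2.55, 2.53, 3.30, 2.25 and 1.95 in the controls and 3.00, 2.86, 3.80, 3.56 and 3.51 in the dosed animals, with a log2 change of 1.16 ± 0.24 (SE, adjusted p = 0.017). Here control animal 4 alone reached into the dosed range. Baiap2l1, which encodes a membrane-bending adaptor, had 2 called probes that did not overlap between the groups, with log2 changes of 0.73 ± 0.12 (SE, adjusted p = 0.00401) and 0.96. Ablim3, an actin-binding LIM protein, rose by 1.37, the uridine phosphorylase Upp2 by 1.22, Reep6, which shapes the endoplasmic reticulum, by 0.88, and the transcription factor Sall1 by 0.82 on the log2 scale, all with adjusted p-values between 0.0268 and 0.0483. Each of these last genes kept its call in 1 or 2 of the 10 leave-out fits. The probe of Upp2 was above background in 3 of 5 dosed and 2 of 5 control livers, and its log2 change ranged from 0.60 in the liver channel alone to 3.34 by the scanner's log ratio. Por, the reductase that hands electrons to the microsomal P450 enzymes, rose by 0.59 ± 0.14 on the log2 scale (SE, adjusted p = 0.0374), as the 1 called member of 21 tested P450 and xenobiotic receptor genes. Its call was kept in 2 of the 10 leave-out fits (adjusted p up to 0.142) and lost without the slide block (adjusted p = 0.543).

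Of the genes that fell, Gadd45g showed the largest change with a symbol. Its product is a growth arrest and stress protein that is induced early by many stimuli. The log2 ratio was 1.85, 1.59, 1.42, 0.63 and 1.48 in the controls and -1.12, -0.08, -1.14, 0.14 and -0.42 in the dosed animals. The groups did not overlap, and the log2 change was -2.03 ± 0.36 (SE, limma adjusted p = 0.00418), with -1.92 and an adjusted p of 0.0455 without the slide block.

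Immediate early genes, which respond within minutes to growth factors and other signals, were lower as far as they were called. Of 15 tested members 2 were called down (Dusp1, Sik1) and none up, 5 fell and 0 rose at an unadjusted p under 0.05, and the median log2 change was -0.30. Among all 9852 tested genes 23 were called down and 22 up, and 689 fell and 451 rose at that limit. The promoter of Dusp1 is shown because it holds a full cAMP response element (TGACGTCA, in capitals), in the 250 bases upstream of the start (chr10:17184603-17184852, GRCr8, plus strand).
Dusp1: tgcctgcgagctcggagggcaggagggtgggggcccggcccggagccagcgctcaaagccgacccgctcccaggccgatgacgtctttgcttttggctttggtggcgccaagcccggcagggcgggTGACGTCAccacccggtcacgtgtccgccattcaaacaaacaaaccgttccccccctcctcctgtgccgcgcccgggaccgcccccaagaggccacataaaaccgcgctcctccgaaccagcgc
Among the 40 called genes with a promoter sequence 3 held this element (Dusp1, Slc25a25 and Wsb1, all of them lower), and 1.83% of all promoters did. This motif too was added after the expression values were known, so the count is a description, and a match describes letters, not a used site. Dusp1, a phosphatase that switches off MAP kinases, read 0.06, 2.00, 1.25, 0.20 and 0.13 in the controls and -0.62, -0.27, -0.72, -0.45 and 0.14 in the dosed animals. Control animals 3 and 4 were far above the other controls, and dosed animal 70 reached the low end of the control range. The log2 change was -1.37 ± 0.28 (SE, limma adjusted p = 0.0135). Sik1, a kinase that restrains CREB coactivators, read 0.80, 0.52, 0.22, 0.77 and -0.04 in the controls and -0.16, -0.52, -0.01, -1.21 and 0.26 in the dosed animals, and its log2 change was -0.69 ± 0.15 (SE, adjusted p = 0.0283). Dosed animals 65 and 70 overlapped with the controls, and the call was lost without dosed animals 63 or 68 or control animals 2 or 5 (adjusted p up to 0.101) and without the slide block (0.382). The transcription factors Myc and Jun gave log2 changes of -0.65 and -0.71 with an adjusted p of 0.35 each.

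Clock genes that passed the test were lower at 0.5 mg/kg. Nfil3 and Cry1 were the called members of 5 tested genes of the morning phase (median log2 change -0.29) and Per2 of 6 of the evening phase (median -0.12), with none called up. Per2, a repressor of the clock, read 1.05, 1.07, 1.07, 0.97 and 0.02 in the controls and -0.01, -0.0019, -0.29, -0.15 and -0.21 in the dosed animals. The groups did not overlap, though control animal 6 stood close to the dosed values, and the probe was above background in 4 control and 3 dosed livers. Its log2 change was -1.09 ± 0.25 (SE, limma adjusted p = 0.0341). Cry1, the partner of the Per proteins, read 1.10, 1.10, 1.05, 1.29 and 0.56 in the controls and 0.04, 0.23, 0.26, 0.28 and 0.23 in the dosed animals, again without overlap, and fell by 0.88 on the log2 scale (SE 0.20, adjusted p = 0.0302). Nfil3, a repressor that competes with the activators of the D-box, read 1.12, 1.75, 1.35, 1.24 and 1.02 in the controls and 0.56, 0.23, 0.97, 1.28 and 0.76 in the dosed animals. Only dosed animal 68 overlapped, and the log2 change was -0.59 ± 0.09 (SE, adjusted p = 0.000793). Just above the 1.5-fold limit in the full fit, Nfil3 lost its call without dosed animals 63 or 70 or control animals 3 or 6 although its adjusted p stayed at or under 0.0185. Per2 kept its call in 1 of the 10 leave-out fits and Cry1 in 3. The activator genes Npas2 and Bmal1 gave log2 changes of -0.29 and -0.11 and Nr1d1, which encodes the repressor REV-ERB alpha, 0.27, with adjusted p-values of 0.43, 0.62 and 0.55. The E-box CACGTG, through which the clock activators bind, occurred in the promoters of 9 of 40 called genes (5 that rose, 4 that fell) and in 6.42% of all promoters.

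The other genes that fell were of several kinds. Slc34a2, a sodium-phosphate cotransporter, read 3.04, 2.45, 2.07, 3.09 and 1.27 in the controls and 0.48, 0.45, 1.69, 0.88 and 1.53 in the dosed animals, so that only control animal 6 overlapped (log2 change -1.15 ± 0.20, SE, limma adjusted p = 0.00418, 3 of 5 dosed livers above background). Rnf125, a ubiquitin ligase, read 4.05, 4.25, 4.16, 4.59 and 4.14 in the controls and 3.75, 2.64, 3.40, 3.14 and 3.24 in the dosed animals without overlap (log2 change -1.04 ± 0.18, SE, adjusted p = 0.00418). Zfp467, a zinc-finger protein, read 1.59, 1.29, 1.49, 0.91 and 1.09 in the controls and 0.91, 0.71, 0.73, 0.28 and 0.36 in the dosed animals, touching at control animal 5 and dosed animal 62. Its log2 change of -0.80 ± 0.11 (SE) had the smallest adjusted p of all probes (0.000707). Wsb1, a substrate receptor of a ubiquitin ligase, gave -1.12 ± 0.22 (SE, adjusted p = 0.0107) and Slc25a25, a mitochondrial ATP-Mg carrier, -1.08 ± 0.26 (SE, adjusted p = 0.0461), both without overlap. Inhba, the activin A subunit, fell by 0.84 and Id4, an inhibitor of helix-loop-helix factors, by 0.84 on the log2 scale. Rtp3, a receptor transporter protein of the liver, fell by 0.84, the helicase gene Rad54l2 by 0.79 and Pdzd4, a PDZ domain protein, by 0.94 on the same scale, with adjusted p-values of these genes between 0.0257 and 0.0484. Inhba, Rtp3 and Rad54l2 kept their calls in 5 of the 10 leave-out fits, Id4 and Pdzd4 in 2, and Slc25a25 in 1.

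Of the 6 genes that the study used to check its arrays by RT-PCR, the reference gene included, 1 was called at this dose (Ppara, described above). The study's own analysis of its arrays marked Akr7a3, Abcb1b, Cyp3a62 and Ppara as higher than control in males at this dose, more genes than were called here. Its RT-PCR of these genes in males at this dose marked none of them. Among the genes so checked, that RT-PCR marked only Fabp7, as lower than control. At an unadjusted p under 0.05, 4 of the 6 rose and 0 fell, with a median log2 change of 0.64, but the study chose these genes on the same samples, so they are not independent evidence of a direction. Akr7a3, an aldo-keto reductase that detoxifies aldehydes, read 2.59, 2.19, 1.67, 1.71 and 1.15 in the controls and 3.17, 1.81, 2.21, 3.79 and 4.83 in the dosed animals. Dosed animals 62, 68 and 70 were above all controls, and the log2 change was 1.20 ± 0.35 (SE, limma adjusted p = 0.129). Abcb1b, the drug efflux pump P-glycoprotein, gave 0.67 ± 0.22 (SE, adjusted p = 0.201). Cyp3a62, a P450 enzyme, had the same raw mean log2 ratio in both groups (3.02) and a fitted log2 change of 0.62 ± 0.29 (SE, adjusted p = 0.409). Fabp7, a fatty acid binding protein, and the reference gene Hprt1 gave -0.12 and -0.11 with adjusted p-values of 0.866 and 0.835. The thyroid hormone targets that the study also measured by RT-PCR were not called. The log2 change was 0.05 for Dio1, which encodes a deiodinase, -0.16 for Thrsp, -0.35 for Mlxipl and -0.21 for the malic enzyme gene Me1, with adjusted p-values of 0.936, 0.539, 0.419 and 0.794.

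Targets of NRF2, the sensor of electrophiles, showed no shared direction. Of 24 tested members none was called, 1 rose (Akr7a3) and 1 fell (Osgin1) at an unadjusted p under 0.05, and the median log2 change was 0.01. Osgin1, an oxidative stress-induced growth inhibitor, read 3.49, 3.41, 3.34, 4.22 and 2.74 in the controls and 2.34, 0.63, 2.22, 2.30 and 3.35 in the dosed animals, with animal 70 within the control range. Its log2 change was -1.15 ± 0.29 (SE, limma adjusted p = 0.0507), just over the threshold. At 2 mg/kg, against the same controls, 7 of these 24 genes were called and the median was 0.36. The antioxidant response element core TGACNNNGC occurred in the promoters of 8 of 40 called genes (3 that rose, 5 that fell) and in 12.1% of all promoters.

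The lists for secreted liver proteins leaned low by small amounts, without a called gene. Of 21 tested complement and coagulation genes, 9 fell and 0 rose at an unadjusted p under 0.05, with a median log2 change of -0.22. Over all 9852 tested genes 689 fell and 451 rose at that limit. The per-array means of this list overlapped between the groups, at 5.135 to 6.449 in the controls and 5.09 to 6.159 in the dosed animals. C8a, a chain of the terminal complement complex, gave -0.31 (limma adjusted p = 0.0495) and the antithrombin gene Serpinc1 -0.43 (adjusted p = 0.14). C8a thus passed the limit on the adjusted p but not the 1.5-fold limit. Of 20 positive acute phase genes 6 fell and 0 rose (median -0.19), of 8 negative acute phase genes 4 fell (median -0.22), and of 15 hepatocyte identity genes 5 fell (median -0.18), all at an unadjusted p under 0.05. These lists share members, such as the transthyretin gene Ttr (log2 change -0.36) and the albumin gene Alb (-0.24).

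None of the genes in the growth hormone and insulin lists was called. Of 17 tested male-biased growth hormone genes 1 rose and 3 fell at an unadjusted p under 0.05 (median log2 change -0.20), of 9 female-biased ones 1 rose and 0 fell (median 0.06), and of 12 genes of gluconeogenesis and the insulin response 0 rose and 3 fell (median -0.19). The members named next had the smallest p-values of their lists. Cish, a feedback inhibitor of STAT5, read 0.76, 1.35, 0.38, 0.09 and -0.44 in the controls and -0.75, -0.59, -1.12, -0.09 and -0.99 in the dosed animals (log2 change -1.32 ± 0.35, SE, limma adjusted p = 0.0688). Bcl6, a repressor that is higher in male liver, gave 1.57 ± 0.48 (SE, adjusted p = 0.154), with control values from -1.44 to 1.48. The prolactin receptor gene Prlr gave 0.85 (adjusted p = 0.12), the insulin receptor substrate Irs2 -0.62 (0.079), and Igfbp1, which binds insulin-like growth factors, -1.05 (0.11). The thyroid hormone and glucocorticoid target Klf9 gave 0.61 (adjusted p = 0.071).

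Markers of other cell types were measured beside these results. No gene of the 8 marker lists was called. The stellate cell and fibrosis list had the highest median of the lists plotted (0.24, 16 tested genes, 2 up at an unadjusted p under 0.05: Mmp2 at 0.45 and Col3a1 at 0.68), and its mean log2 ratio lay between -2.15 and -1.84 on the control and between -2.04 and -1.32 on the dosed arrays. The bile duct and progenitor list had a median of 0.24 (14 tested genes, 0 at an unadjusted p under 0.05), with means between -0.92 and -0.60 and between -0.73 and -0.32. Both medians are by the brightest probe of each gene. Over all probes of a gene they were 0.19 for the stellate cell list and 0.24 for the bile duct list. The order of these lists thus depends on the choice of probe. The Kupffer cell, neutrophil and lymphocyte, sinusoidal endothelium and erythroid lists had medians of -0.09, 0.12, 0.10 and -0.21, and their per-array means overlapped between the groups. None of the 3 tested pancreatic acinar genes was above background on all 10 arrays. In bulk liver, fewer cells of a type and less RNA per cell cannot be told apart, and the part of these markers in the called changes was not tested.

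**Figure D3:**
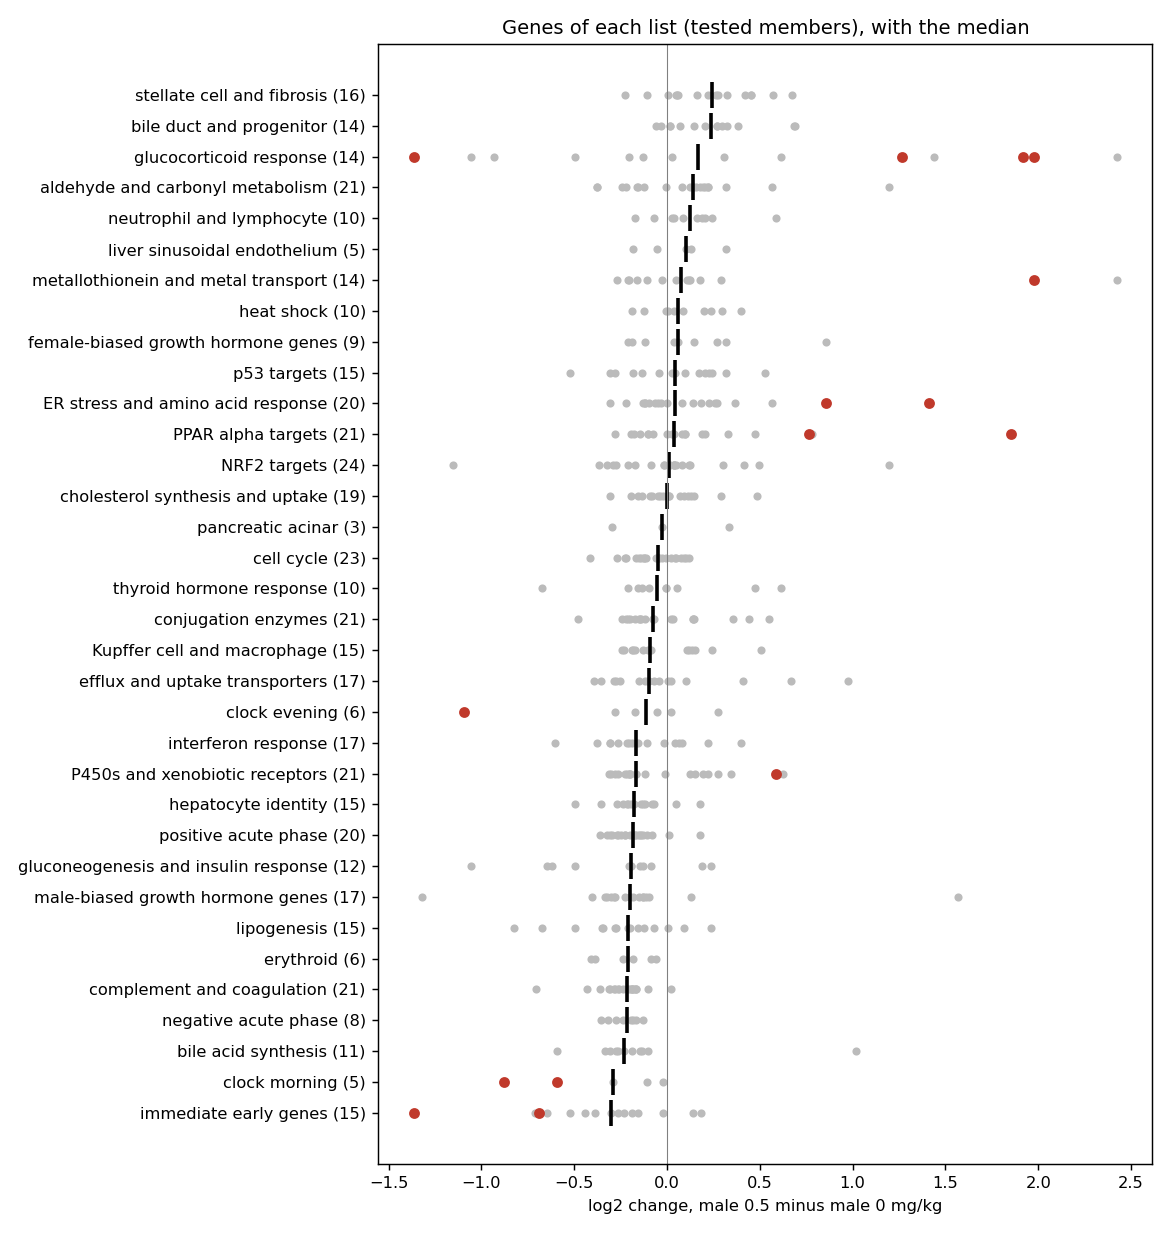
Each row is a gene list with its number of tested members, each grey point a member's fitted log2 change (horizontal axis, male 0.5 minus male 0 mg/kg), red points are called members and black bars the list median. Called genes lie at the ends of their lists, and the medians of the lists shown lie between -0.30 and 0.24.

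Next to the other doses, the called genes were set side by side with the caution that all doses share the same 5 control arrays. Against those controls 54 probes were called at 0.12 mg/kg (0.306%), 895 at 2 mg/kg (5.07%) and 0 at 0.03 mg/kg (0%, with 728 under an unadjusted p of 0.05). Zfp354a gave log2 changes of 1.20, 2.89, 2.75 and 1.56 at 0.03, 0.12, 0.5 and 2 mg/kg, Fkbp5 0.41, 1.29, 1.27 and 1.28, and Gadd45g -0.49, -1.46, -2.03 and -1.65. Mt1 gave 1.24, 1.82, 1.98 and 2.27 and Dusp1 0.07, -0.71, -1.37 and -1.40 over the same doses. The direct tests between doses contrasted no control group, although the control arrays entered the same fit through its slide terms and spread. Between 2 and 0.5 mg/kg 198 probes were called (1.12%), 3 of them among the 64. Of the 64, 15 passed an unadjusted p under 0.05 in that comparison (3820 of all probes, 21.6%). Between 0.5 and 0.12 mg/kg limma called 0 probes (0%, lowest adjusted p 0.419), while 986 (5.58%) and 15 of the 64 passed an unadjusted p under 0.05. Zfp467 was the lowest of these 64 by p, with a log2 change of -0.53 ± 0.12 (SE, adjusted p = 0.518) between 0.5 and 0.12 mg/kg. As the 64 were chosen on the 0.5 mg/kg arrays that both comparisons contain, these counts are descriptions.

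**Figure D4:**
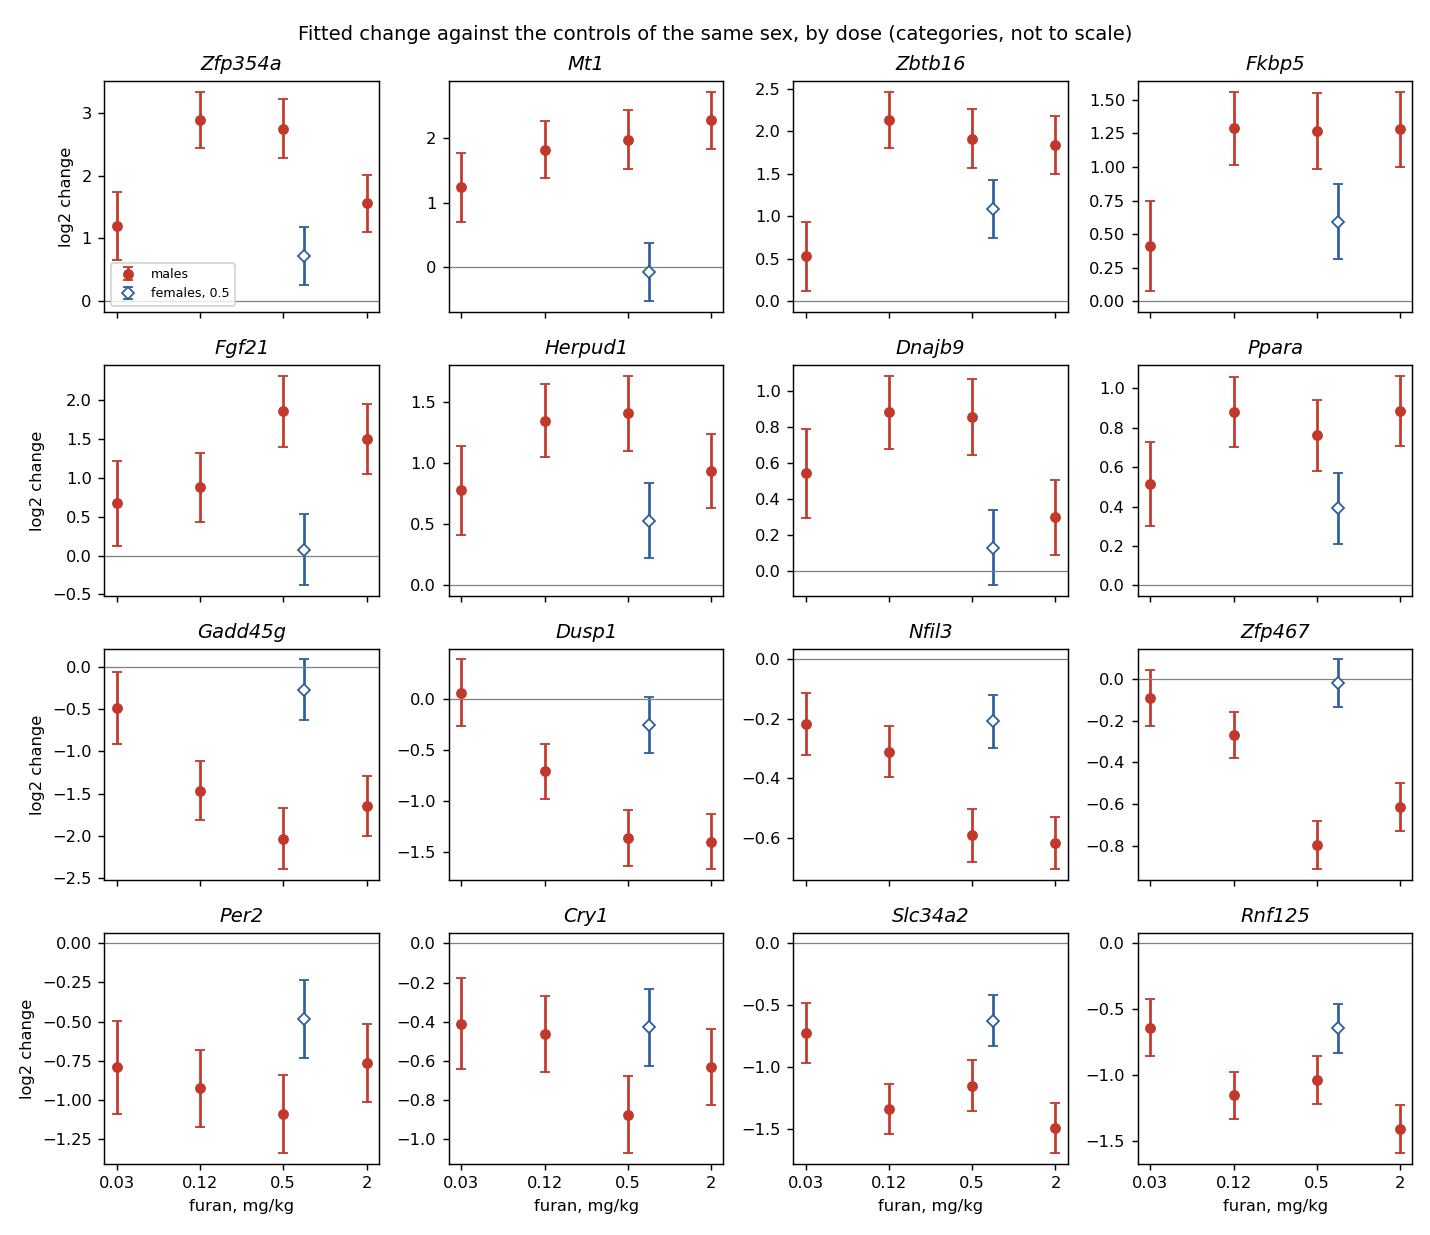
The vertical axis gives the fitted log2 change against controls of the same sex, with bars of ± 1 SE, and the horizontal axis the furan dose in mg/kg as categories. Red circles are males and open blue diamonds females at 0.5 mg/kg, for 16 called genes. Fkbp5 and Zbtb16 are near their 0.5 mg/kg value already at 0.12 mg/kg, while Zfp467 is near 0 at 0.03 mg/kg (-0.09) and at -0.80 at 0.5 mg/kg.

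Females at the same dose (5 arrays against 5 female controls, no array in common with the males) had 5 called probes (0.0283%, all lower), 1 of which was called in both sexes and has no symbol here. Both sexes were contrasts of the same fit and shared its slide terms and spread, and slides 1, 6 and 7 held 0.5 mg/kg arrays of both. The values of the sexes are thus not independent of each other. Of the 64 probes called in males, 59 had the same sign in females, against 58.4% of all tested probes, and 63 had a smaller fitted change there. The 64 were chosen for their change in males, which largely sets that last count. In females 23 of the 64 passed an unadjusted p under 0.05 in the same direction and 0 in the opposite one (2688 of all probes in either direction, 15.2%). Zbtb16 gave 1.09 ± 0.34 and Upp2 0.92 ± 0.30 in females on the log2 scale (SE), Rnf125 -0.65 ± 0.18, Slc34a2 -0.62 ± 0.20 and Fkbp5 0.59 ± 0.28. The metallothionein and Fgf21 values in females were near 0, at -0.08 ± 0.45 for Mt1, 0.14 ± 0.50 for Mt2A and 0.08 ± 0.46 for Fgf21 (SE). The test of the difference between the sexes called 0 probes (0%), the lowest adjusted p being 0.180, for Zfp467 (log2 difference -0.77 ± 0.16, SE). At an unadjusted p under 0.05 it passed for 1448 probes (8.20%) and for 35 of the 64, which were chosen for their change in males. Sex differences for Mt1, Fgf21 and Gadd45g were thus not shown after adjustment (limma adjusted p = 0.426 for Mt1 and 0.362 for Gadd45g).

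**Figure D5:**
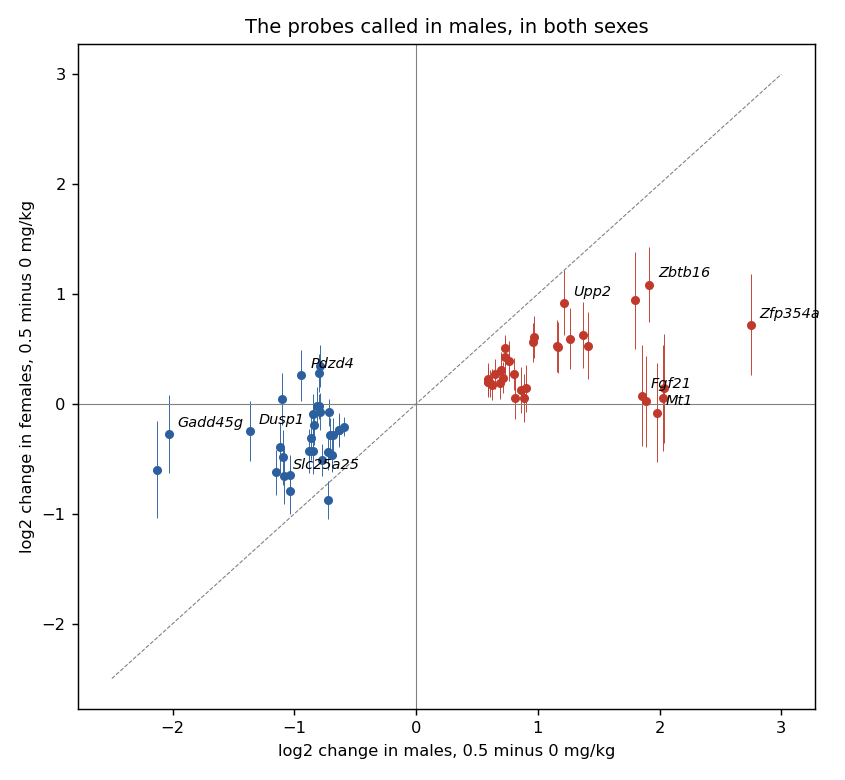
Each point is 1 of the 64 probes called in males, with the fitted log2 change at 0.5 mg/kg in males on the horizontal axis and in females on the vertical axis (bars ± 1 SE in females). Red points rose and blue points fell in males, and the dashed line marks equal change. Of the points, 59 lie on the side of 0 that the males show, and Mt1 and Fgf21 lie near 0 in females.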

How the data were processed

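Liver RNA of 49 rats was hybridised with a common reference on 2-colour Agilent arrays. Per the file headers, the authors deposited scanner files with intensity values (median signals and backgrounds, Agilent Feature Extraction 10.7.3.1, 62976 spots per array) and log10 ratios, and a table of processed log2 ratios. Here, normexp background correction (offset 50) and loess within arrays (limma 3.58.1 in R 4.3.3, control spots with weight 0) were applied and the spots of a probe averaged. Testing was limited to probes that passed the scanner's background flag for liver in 4 or more arrays of some group. The model held sex by dose and slide, over 48 arrays: a male 0.03 mg/kg array with under 20% of liver spots above background was left out. Probes were named through RefSeq (18004 of 30367 matched). A call needed an adjusted p no higher than 0.05 with a 1.5-fold difference or more, and the alternatives listed in the closing section were run. Columns of the processed table matched scanner files of other animals of the same group (own column best for 0 of 5 dosed and 2 of 5 control males), so animal numbers are those of the scanner files. Genes were named as the 15 largest rises and falls among the called, the genes the study measured by RT-PCR, and, for each of 35 gene lists, its called members and up to 4 with the smallest p. A gene that this rule takes is not reported here. The members and lists were chosen with earlier results of these data known. The replicates were separate animals.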

Additional observations from a re-analysis of the deposited data

Results flagged for a closer look

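In 5 of 90 groups of 5 arrays tested with Dixon's ratio, 1 array stood apart from the other 4, where chance alone flags about 1 in 20 groups. Among the control males, animal 5 read 2.54 for Fgf21 on the log2 ratio scale, against 0.67 to 1.19 in the others. Control animal 6, the dimmest control array, was the lowest for Per2 (0.022 against 0.97 to 1.07) and for C8a (5.92 against 6.62 to 6.72). Among the dosed males, animal 62 was the lowest for Cry1 (0.042 against 0.23 to 0.28) and animal 63 for Rtp3 (2.55 against 3.34 to 3.53). Animals 62 and 63 were the dosed arrays with the fewest liver spots above background, and the part of signal in these values was not tested.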

How the results depend on the processing

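The direction of all 64 called probes was the same in each of the 22 alternative settings that altered the fitted changes, but the number of calls was not. These settings used all or most of the arrays on which the 64 were chosen, so the kept direction is a description. The other 4 of the 26 settings (Aquantile, treat and both filters) leave the fitted changes as they were. For male 0.5 against 0 mg/kg, against 64, limma called 8 probes without the slide block, 25 with the dim array included, 0 with that array and no slide block (1267 at an unadjusted p under 0.05), 31 from male arrays only, 39 from the liver channel alone, 25 from the scanner's log ratio, 38 from the series matrix, 41 without a filter, 0 by treat (36 at an unadjusted p under 0.05) and 23 without the 2 dosed arrays on slides with no control array. Leaving out 1 array in turn gave 20 to 85. For 2 against 0.5 mg/kg, against 198, the counts were 37 without the slide block, 86 with the dim array, 14 with it and no slide block, 31 from male arrays only, 50 with median centring, 448 from the scanner's log ratio, 119 with array weights, 2 by treat and 92 without the 2 dosed arrays on slides with no control array. The test between sexes called 6 probes with array weights and 0 to 1 when 1 array was left out, 1 of them without control animal 6. For 0.5 against 0.12 mg/kg each of these settings called 0. Cyp3a62 changed sign without the slide block (log2 change -0.0056, with or without the dim array). No paired analysis was possible because the male 0.5 and male 0 mg/kg groups share no animal numbers. The cause of these changes was not tested. The number of arrays, 5 in each group, limits the precision.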
